A study of Mus musculus with 20 samples.

Results

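Wild-type mouse tracheal epithelial cultures were compared between day 0 and day 4 at an air-liquid interface, and the members are the 6 libraries, of 20 in the series, that the labels call wild type at those days. The cultures (MTECs) are primary cells of the mouse trachea grown on porous membranes, and polyadenylated RNA was sequenced. All 6 libraries are wild type and received no named agent other than the interface itself, with 3 libraries at day 0 and 3 at day 4. The other 14 libraries are the wild-type cultures of days 7 and 14 (3 each) and cultures from mice with a global p73 knockout at days 0, 4, 7 and 14 (2 each). Of these, the 4 labelled-knockout libraries of days 0 and 4 enter one comparison at the end. The strain, age and sex of the mice are not given in the labels, and the series text calls the replicates independent and biological. The title of wild-type day 4 replicate 1 names day 3, while its other labels give day 4, so it was kept at day 4 and results are also given without it.

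The tracheal surface is lined by basal cells, which are the stem cells, and by secretory and multiciliated cells. At an air-liquid interface the medium above the cells is removed, and basal and secretory cells give rise to multiciliated cells over the following days. A cell that becomes multiciliated leaves the cell cycle, switches on a transcriptional programme headed by geminin-family proteins and Foxj1, builds many centrioles, docks them at the apical membrane as basal bodies and grows a motile cilium from each. The motile cilium has a microtubule axoneme with dynein arms, radial spokes and a central pair, and its parts are carried by intraflagellar transport.

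Depth was uneven. Whole reads recovered from the deposited values numbered 14.1, 14.9 and 27.0 M in the day 0 libraries. They numbered 29.9, 20.3 and 3.27 M in those of day 4, so day 4 replicate 3 resolves low levels least well. Ribosomal protein genes took 0.98% to 1.12% of reads on day 0 and 0.70% to 0.81% on day 4. Defining genes of airway epithelium were present in every library. The basal keratin Krt5 was at 483 CPM or more, the epithelial cadherin Cdh1 at 1054 CPM or more and the club cell enzyme Cyp2f2 at 2791 CPM or more. Of 15738 genes tested, 27% were called at an adjusted p (FDR, limma) under 0.05, 13.7% as higher and 13.3% as lower on day 4. Of the called genes 50.7% were higher, a share that was 62.7% with library totals in place of TMM scaling and 26.6% with the values as deposited, which were scaled within each day. The 3 and 3 libraries did not overlap for 37.8% of tested genes. The median difference over all tested genes was -8e-04 on the log2 scale. Levels below are CPM, reads of a gene per M reads of the library total times its TMM factor. That factor was 0.9027 to 0.9743 in the day 0 libraries and 1.022 to 1.024 in those of day 4. Levels are in replicate order 1, 2 and 3, and means are ± SD with n = 3. Differences, given as log2 values, are day 4 minus day 0 in log2(CPM + 0.5) ± SE, a scale that understates the change of genes near 0. The cultures were sequenced in bulk, so a change in the number of cells of a type and a change in RNA per cell cannot be told apart.

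**Figure D1:**
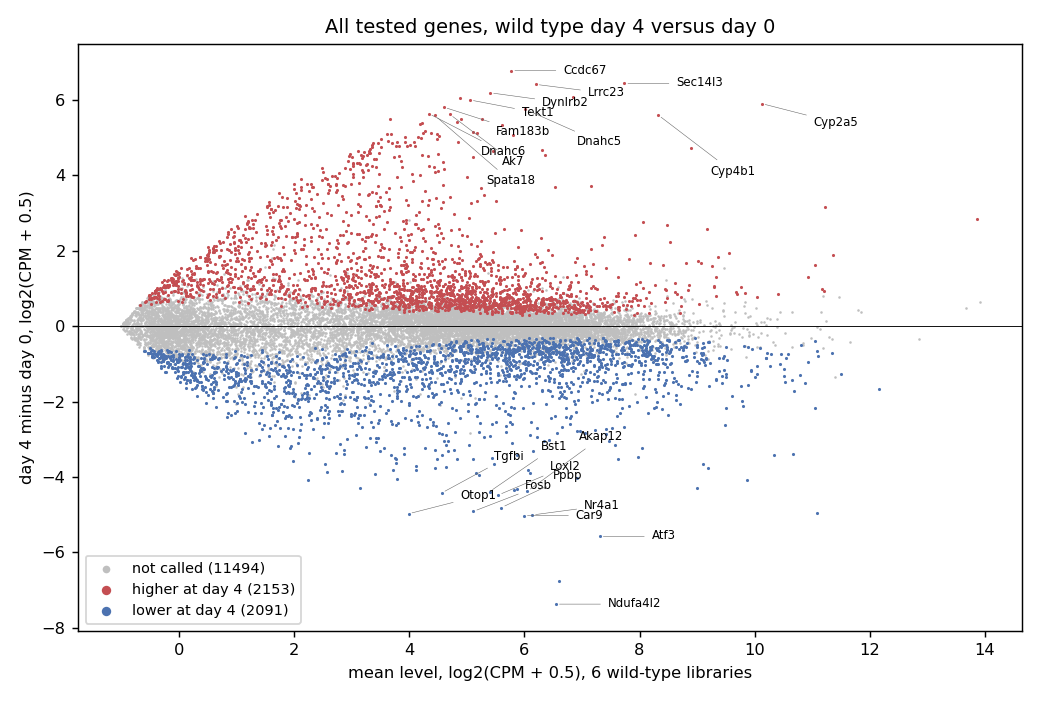
Each point is 1 of the 15738 tested genes, with its mean level over the 6 wild-type libraries on the horizontal axis and day 4 minus day 0 on the vertical axis, both in log2(CPM + 0.5). Colours mark genes called higher (2153) and lower (2091), and the labelled genes are 12 of the largest rises and 11 of the largest falls, with predicted, clone-named and sex-linked genes left without a label, from Ccdc67 at 6.78 to Ndufa4l2 at -7.37.

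Regulators of the multiciliated programme were the first group examined. Of 12 tested, 9 rose and none fell, against 13.7% of all genes called higher, and their median difference was 3.31. The highest in the order of action are Gmnc (geminin coiled-coil, chr16:26913553-26991652) and Mcidas (multicilin), geminin-like coactivators that work with E2f factors. Gmnc stood at 0.364, 1.24 and 1.77 CPM on day 0 and 25.2, 35.2 and 44.8 CPM on day 4 (log2 4.53 ± 0.30, FDR 2.14e-08). Mcidas stood at 0.219, 0.893 and 0.411 CPM on day 0 and 19.6, 46.5 and 45.4 CPM on day 4 (log2 5.18 ± 0.28, FDR 3.04e-09). Ccno, a cyclin needed for centriole amplification, was at 1.24, 1.72 and 2.3 CPM on day 0 and 51, 111 and 124 CPM on day 4 (log2 5.34 ± 0.28, FDR 2.62e-09). For all of these every day 4 library lay far above every day 0 library. Myb, a transcription factor of early multiciliated cells, moved from 1.97, 3.23 and 1.81 to 37.5, 135 and 153 CPM (log2 5.06 ± 0.38, FDR 8.05e-08), and Foxn4 from 0.146, 0.137 and 0.0411 to 8.22, 22.3 and 34.4 CPM (log2 4.97 ± 0.38, FDR 1.11e-07). For Foxj1 (chr11:116330704-116335399), the forkhead factor that drives motile cilium genes, the libraries held 21.3, 12.4 and 22.5 CPM on day 0 and 136, 330.4 and 327 CPM on day 4 (log2 3.72 ± 0.28, FDR 9.19e-08). Foxj1 thus had the highest day 4 level of the regulators in every day 4 library, and a clear level before the interface as well.

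Smaller rises came from the regulatory factor X proteins, which bind X-box motifs upstream of cilium genes. Rfx2 was at 11.3, 11.1 and 15.9 CPM on day 0 and 21.5, 33.3 and 29.3 CPM on day 4 (log2 1.10 ± 0.24, FDR 0.00261). Rfx3 was at 15.9, 15.7 and 18.1 CPM on day 0 and 27.2, 55.4 and 52.3 CPM on day 4 (log2 1.35 ± 0.25, FDR 0.000626). The p53 family split by member. Trp73 (chr4:154056253-154140208), a regulator of multiciliated cells that is the gene labelled knockout elsewhere in the series, rose from 2.7, 2.2 and 1.07 to 9.83, 22 and 23.3 CPM (log2 2.89 ± 0.32, FDR 4.56e-06). Its basal cell relative Trp63 was at 148, 167 and 99.1 CPM on day 0 and 82.7, 117 and 82.8 CPM on day 4, with overlapping libraries and no call (log2 -0.54 ± 0.22, FDR 0.0757), though it was called without day 0 replicate 3 (FDR 0.0234) and without day 4 replicate 2 (FDR 0.0392). Trp53 was at 62, 35.4 and 39 CPM on day 0 and 55.6, 49.6 and 54.4 CPM on day 4 and was not called either (log2 0.27 ± 0.23, FDR 0.427). The E2f partners of the geminin-like proteins were already present on day 0: E2f4 was at 70.5, 49.5 and 58.7 CPM on day 0 and 62.9, 57.4 and 55.3 CPM on day 4 (log2 -0.01 ± 0.15, FDR 0.962), and E2f5 and its dimer partner Tfdp1 had differences of 0.09 ± 0.14 and 0.13 ± 0.24, neither called.

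Ccno and Mcidas are neighbours on mouse chromosome 13, and Cdc20b, a gene that hosts the miR-449 cluster, follows on the same strand. In GENCODE vM21 coordinates (GRCm38) Ccno lies at chr13:112987802-112990777, Mcidas at chr13:112993845-113000394 and Cdc20b at chr13:113035111-113091195. Cdc20b was at 0, 0.0687 and 0 CPM on day 0 and 14.2, 24.3 and 35 CPM on day 4 (log2 5.49 ± 0.29, FDR 2.62e-09), so all 3 genes of the cluster had non-overlapping libraries. Gpx8, a glutathione peroxidase gene that lies inside the Cdc20b span on the other strand, was at 148, 173 and 139.6 CPM on day 0 and 117, 128 and 108 CPM on day 4 and was not called (log2 -0.38 ± 0.16, FDR 0.0936). Dhx29, the neighbour on the near side of Ccno, was at 28.5, 25.2 and 29.2 CPM on day 0 and 58.8, 47.1 and 50.5 CPM on day 4 (log2 0.90 ± 0.17, FDR 0.000659), a smaller rise than those of the 3 cluster genes. The next protein-coding genes beyond Dhx29 were also called higher, by 0.59 ± 0.20 (FDR 0.0333) and 0.84 ± 0.15 (FDR 0.00053). Dhx29 and Gpx8, like Krt5, Cdh1 and Scgb1a1 elsewhere, are named after their values were seen. Whether counting used the strand is not given in the sources used here, so reads of overlapping genes on opposite strands may not be separated. The upstream windows of Ccno and Mcidas are shown because these 2 genes had the largest rises among the regulators and each window held 1 X-box core (GTTGCC or GTTACC on either strand, in capitals). The sequences are from RefSeq, build GRCm38.p6, and run 5′ to 3′ over the 250 bases before the RefSeq start.
Ccno, chr13:112987552-112987801, plus strand: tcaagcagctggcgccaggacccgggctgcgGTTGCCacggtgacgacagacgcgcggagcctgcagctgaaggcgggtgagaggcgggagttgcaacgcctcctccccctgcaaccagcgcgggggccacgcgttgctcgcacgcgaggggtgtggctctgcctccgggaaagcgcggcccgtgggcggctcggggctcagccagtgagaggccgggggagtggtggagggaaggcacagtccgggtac
Mcidas, chr13:112993618-112993867, plus strand: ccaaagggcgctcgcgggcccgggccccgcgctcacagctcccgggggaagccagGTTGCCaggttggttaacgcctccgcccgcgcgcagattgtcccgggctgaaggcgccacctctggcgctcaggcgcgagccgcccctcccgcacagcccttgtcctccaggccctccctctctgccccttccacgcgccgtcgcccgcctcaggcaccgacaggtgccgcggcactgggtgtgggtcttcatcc
Windows were found for 9 of the regulators, and 4 of these genes (44.4%) held the core, against 17.6% of the 27025 genes with a window in the table. Those of Myb and Foxn4 held none of these letters.

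**Figure D2:**
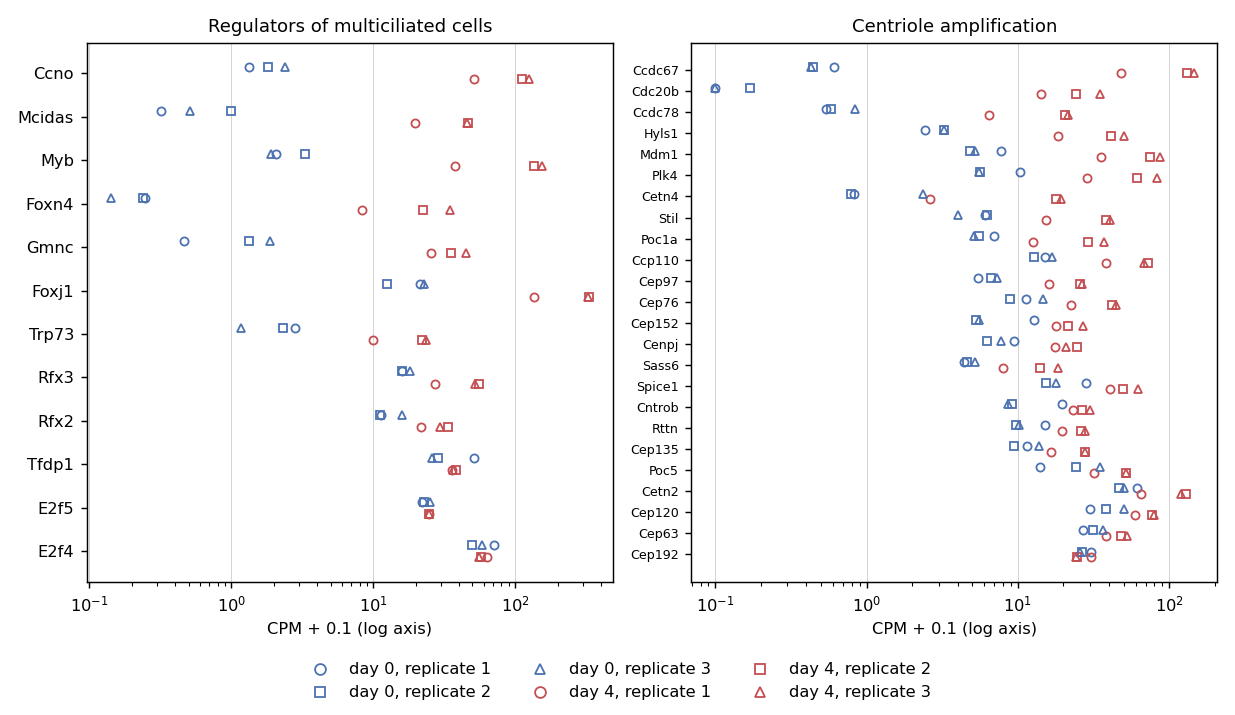
Levels of the 12 regulators (left) and 24 centriole amplification genes (right) in each of the 6 libraries, as CPM + 0.1 on a log axis, ordered by difference. Blue marks are day 0, red marks day 4, and shapes the replicates; the red circle, day 4 replicate 1, is the lowest day 4 library for 11 of 12 regulators and 23 of 24 centriole genes.

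Genes of centriole amplification moved with the regulators. Of 24 tested, 23 rose and none fell, with a median difference of 1.56, and 22 had non-overlapping libraries with day 4 higher against 19.5% of all genes. The largest rise of all 15738 tested genes belonged to Ccdc67 (Deup1), the scaffold of the deuterosome on which most centrioles of a multiciliated cell form. It was at 0.51, 0.344 and 0.329 CPM on day 0 and 48.1, 131 and 145 CPM on day 4 (log2 6.78 ± 0.34, FDR 2.24e-09). Ccdc78, another deuterosome-associated protein, was at 0.437, 0.481 and 0.739 CPM on day 0 and 6.35, 20.3 and 21.2 CPM on day 4 (log2 3.80 ± 0.41, FDR 3.3e-06). The general centriole machinery, which dividing cells also use, rose as well: the duplication kinase Plk4 from 10.3, 5.5 and 5.46 to 28.8, 61.3 and 83.1 CPM (log2 2.87 ± 0.37, FDR 2.22e-05), and the centriole proteins Hyls1 and Mdm1 by 3.35 ± 0.32 and 3.31 ± 0.33. Cep192, a centrosome scaffold, was the exception at 30.4, 26.5 and 25.6 CPM on day 0 and 30.5, 24.6 and 24.2 CPM on day 4 (log2 -0.06 ± 0.20, FDR 0.868). Among genes of basal body appendages and satellites 13 of 20 rose and none fell (median 0.83). The largest rises there were Cep128 (8.66 ± 3.35 to 50.6 ± 22.9 CPM, 2.42 ± 0.40) and Dzip1l (6.71 ± 2.01 to 29.6 ± 12.1 CPM, 2.004 ± 0.30), and Cby1, which acts in basal body docking, went from 24.3, 12.3 and 11.4 to 33.4, 61.5 and 73.5 CPM (log2 1.79 ± 0.35, FDR 0.00109). The distal appendage protein Cep164 did not pass, at 48.1 ± 10.2 and 56.1 ± 3.12 CPM (log2 0.24 ± 0.19, FDR 0.377).

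Axoneme genes showed the largest group differences. In the outer dynein arm and docking list 12 of 13 tested members rose, with a median of 4.09, and in the inner arm list 11 of 11 rose, with a median of 4.29. Dnahc5, an outer arm heavy chain whose loss causes primary ciliary dyskinesia, was at 0.947, 1.72 and 2.5 CPM on day 0 and 56.5, 158 and 166 CPM on day 4 (log2 5.75 ± 0.37, FDR 1.84e-08). Its partner heavy chain Dnahc9 was at 1.39, 1.37 and 0.616 CPM on day 0 and 16, 57.4 and 55.6 CPM on day 4 (log2 4.58 ± 0.43, FDR 8.02e-07). The intermediate chain Dnaic2 was at 1.9, 2.61 and 1.89 CPM on day 0 and 26.3, 87.3 and 84 CPM on day 4 (log2 4.48 ± 0.35, FDR 1.26e-07). Each of these was near 1 or 2 CPM before the interface and had no overlap between days. The docking protein Ccdc151 and the armadillo protein Armc4, both needed to attach outer arms, differed by 5.36 ± 0.34 and 4.51 ± 0.43. Only Dnahc17 among the outer arm members did not pass, at 0.729, 0.55 and 0.575 CPM on day 0 and 1.11, 0.627 and 0.299 CPM on day 4 (log2 0.02 ± 0.27, FDR 0.963). On the inner arms the heavy chain Dnahc6 was at 0.291, 0.206 and 0.164 CPM on day 0 and 17.4, 49.4 and 50.8 CPM on day 4 (log2 5.64 ± 0.35, FDR 1.4e-08). The light intermediate chain Dnali1 was at 0.146, 0.756 and 1.19 CPM on day 0 and 19.6, 72.3 and 73.8 CPM on day 4 (log2 5.43 ± 0.42, FDR 1.11e-07). The cytoplasmic factors that preassemble dynein arms rose in 13 of 13 cases (median 2.11), among them Zmynd10 (0.577 ± 0.269 to 40.1 ± 19.3 CPM, 5.12 ± 0.34), Dnaaf1 (0.151 ± 0.132 to 20.8 ± 11.1 CPM, 4.87 ± 0.37) and Spag1 (3.96 ± 0.754 to 29.6 ± 10.5 CPM, 2.70 ± 0.23).

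Genes of the radial spokes, the central pair and the nexin link rose in 30 of 31 cases, with a median of 3.505. The radial spoke head protein Rsph4a was at 0.802, 1.03 and 1.27 CPM on day 0 and 15.3, 80.1 and 71.1 CPM on day 4 (log2 4.88 ± 0.43, FDR 3.74e-07). The central pair protein Hydin was at 0.219, 0.206 and 0.329 CPM on day 0 and 6.45, 25.4 and 31.4 CPM on day 4 (log2 4.58 ± 0.46, FDR 1.36e-06). Ccdc40, which sets the axonemal repeat with Ccdc39, was at 1.53, 0.687 and 1.85 CPM on day 0 and 28.1, 90.2 and 92.6 CPM on day 4 (log2 5.13 ± 0.37, FDR 5.24e-08). Ccdc37 was the member that did not pass (log2 1.25 ± 0.52, FDR 0.0882), with day 4 replicate 1 at 1.18 CPM inside the day 0 range. It was called without day 4 replicate 1 (FDR 0.00974). Tektins and microtubule inner proteins, which line the doublet microtubules, rose in 17 of 18 cases (median 2.97). Tekt1 was at 0.219, 0.275 and 0.698 CPM on day 0 and 22.9, 80.2 and 92 CPM on day 4 (log2 5.999 ± 0.39, FDR 1.97e-08). Tekt4 was at 0.802, 0.756 and 0.452 CPM on day 0 and 14, 53.8 and 61 CPM on day 4 (log2 4.98 ± 0.39, FDR 1.33e-07). Tekt5, a tektin known from sperm, went the other way at 2.62, 3.09 and 3.9 CPM on day 0 and 1.54, 1.01 and 1.2 CPM on day 4 (log2 -1.08 ± 0.30, FDR 0.0127), and was not called without day 0 replicate 3 (FDR 0.0607). X-box cores stood in the upstream windows of 9 of 15 tektin and inner protein genes (60.0%), 12 of 26 radial spoke group genes (46.2%), 7 of 19 centriole genes (36.8%), 3 of 10 outer arm genes (30.0%) and 3 of 9 inner arm genes (33.3%), against 17.6% of all genes with a window.

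The groups stood at different distances from their later levels. Over members, the median day 4 level was 81.8% of the wild-type day 14 mean for the regulators and 83.6% for centriole amplification. It was 48.9% for dynein assembly factors and 53.6% for intraflagellar transport, and 30.2%, 29.7% and 30.7% for outer arms, inner arms and radial spoke genes. The starting points differed too. In the day 0 libraries the median was 4.39% to 7.41% for regulators, 20.9% to 23% for centriole amplification and 25.3% to 28.3% for intraflagellar transport. For inner arms it was 0.247% to 0.65%, and for radial spoke genes 0.554% to 0.87%. Mcidas, Ccno and Foxn4 had day 4 means near those of day 14 (37.2 ± 15.2 against 37.4 ± 3.33, 95.4 ± 39.1 against 90.4 ± 1.43 and 21.6 ± 13.1 against 17.4 ± 4.77 CPM), within the spread of the day 4 libraries. Other regulators were further from day 14: Foxj1 at 265 ± 111 against 485 ± 8.40 CPM, Rfx2 at 28.0 ± 6.0 against 51.5 ± 8.74 CPM and Rfx3 at 45.0 ± 15.5 against 87.0 ± 16.8 CPM. The regulator median also includes E2f4, E2f5 and Tfdp1, which were not called between days 0 and 4. Of the 12 regulators, 3 had a day 4 mean at or above that of day 14: Ccno, Foxn4 and the uncalled E2f4 (58.53 against 58.51 CPM). Dnahc5 was at 127 ± 60.9 against 449.8 ± 77.4 CPM and Dnahc9 at 43 ± 23.4 against 197 ± 27 CPM. These percentages are descriptions and were given no test.

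**Figure D3:**
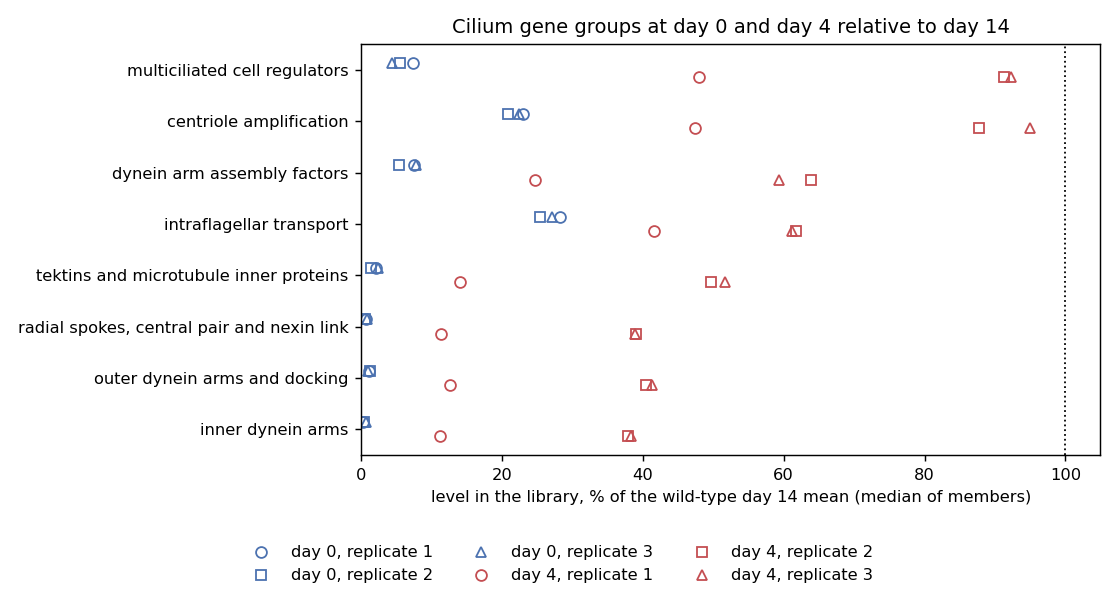
For 8 groups of cilium genes, the level in each wild-type library of day 0 (blue) and day 4 (red) as a percent of the gene's wild-type day 14 mean, shown as the median over the group's members. Day 4 replicate 1 (circle) stood at 48.0% for regulators and 47.4% for centriole genes, where replicates 2 and 3 stood at 87.7% to 94.9%; for inner dynein arms the 3 libraries stood at 11.3%, 37.8% and 38.3%.

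The library titled day 3 held lower levels of the cilium groups than the other 2 day 4 libraries. It was the lowest of the 3 for 11 of 12 regulators, 31 of 31 radial spoke group genes and 33 of 34 intraflagellar transport genes, and for 62.4% of all genes called higher, against 35.7% of all tested genes. Of the genes called lower, 42.8% were highest in it among the day 4 libraries, against 41.7% of all tested genes. Summed over the outer arm list it held 178 CPM against 565 and 569 CPM, and between 19.10 and 21.97 CPM in the day 0 libraries. Without it, 3954 genes were called, 3569 of them shared with the full set, and the counts of risen members were 9 regulators, 23 centriole genes, 12 outer arm, 11 inner arm and 31 radial spoke group genes.

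Transport and gating of the cilium rose less steeply and more unevenly. In the intraflagellar transport list 26 of 34 members rose and none fell (median 0.88). The retrograde motor Dync2h1 was at 22.2, 14.3 and 16 CPM on day 0 and 53, 72.5 and 83.7 CPM on day 4 (log2 1.96 ± 0.26, FDR 2.4e-05), and the train components Ift74 and Ift57 differed by 1.48 ± 0.27 and 1.39 ± 0.17. Ift52 and the kinesin-II motor Kif3b, both well expressed on day 0, did not pass (0.11 ± 0.15 and 0.30 ± 0.15). In the BBSome list 9 of 13 members rose (median 0.94), led by Bbs7 (4.32 ± 2.17 to 16.6 ± 6.46 CPM, 1.85 ± 0.34) and Bbs9 (14.1 ± 1.52 to 40.4 ± 8.66 CPM, 1.46 ± 0.17), while Mkks did not pass, at 40.7 ± 4.99 and 41 ± 1.75 CPM. Of 22 genes of the transition zone, the gate at the cilium base, 13 rose (median 0.87), including Nphp4 (4.42 ± 1.23 to 23.6 ± 8.47 CPM, 2.26 ± 0.28) and Tmem107 (12.4 ± 2.39 to 59 ± 22.4 CPM, 2.13 ± 0.29). The tubulins did not move together: 4 of 12 rose and 2 fell (1 fell without day 0 replicate 2, day 0 replicate 3, day 4 replicate 1 or day 4 replicate 3). Tubb4b, a main ciliary beta-tubulin, was at 184, 124 and 103 CPM on day 0 and 282, 539.6 and 499.9 CPM on day 4 (log2 1.67 ± 0.33, FDR 0.00109). Tuba1a was at 15.9, 24.5 and 17.7 CPM on day 0 and 33.9, 147 and 114 CPM on day 4 (log2 2.09 ± 0.48, FDR 0.0037). Tubb6 fell from 39.8, 49.1 and 33 to 11.7, 13.8 and 8.96 CPM (log2 -1.78 ± 0.26, FDR 7.18e-05), while the most abundant isotype on day 0, Tubb5, was at 350.3 ± 114 and 322 ± 30 CPM (log2 -0.07 ± 0.22, FDR 0.847). Alpha-tubulin genes are near-identical in their coding parts, so reads may be split among them. Of 20 tubulin-modifying enzymes 11 rose and none fell (median 0.77; 6 rose without day 0 replicate 2), such as the deglutamylase Agbl2 (0.291 ± 0.154 to 19.6 ± 11.5 CPM, 4.44 ± 0.40) and the glutamylase Ttll6 (0.0243 ± 0.0421 to 7.01 ± 4.8 CPM, 3.63 ± 0.37). Planar polarity genes, which orient cilia across the tissue, rose in 3 and fell in 3 of 19 cases, shares near those of all tested genes. The ciliogenesis effector Intu rose (log2 0.89 ± 0.20, FDR 0.00324), whereas Prickle1 fell (log2 -1.13 ± 0.29, FDR 0.00703). The fallen members numbered 1 without day 0 replicate 1, day 4 replicate 2 or day 4 replicate 3, and the risen ones 1 without day 4 replicate 3.

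Genes induced by low oxygen fell. Hypoxia-inducible factors activate these genes through a short core, ACGTG or GCGTG, when oxygen is scarce, and they shift cells toward glycolysis. Of 30 tested members of the hypoxia response list 22 fell, against 13.3% of all genes called lower, and 1 rose, with a median of -1.97. Ndufa4l2 (chr10:127514967-127517154), a mitochondrial protein strongly induced by hypoxia, had the largest fall of all the genes named here, from 183, 174 and 199 to 0.688, 0.579 and 0.598 CPM (log2 -7.37 ± 0.30, FDR 3.32e-10). Car9, a cell-surface carbonic anhydrase, fell from 69, 114 and 186 to 3.44, 2.65 and 2.99 CPM (log2 -5.02 ± 0.30, FDR 1.37e-08). Its relative Car12 fell from 66.4, 148 and 106 to 2.62, 5.88 and 5.68 CPM (log2 -4.36 ± 0.49, FDR 5.3e-06). No day 4 library came near any day 0 library for these genes. Egln3, an oxygen-sensing prolyl hydroxylase, was at 939.5, 1224 and 1085 CPM on day 0 and 62.4, 108 and 72 CPM on day 4 (log2 -3.77 ± 0.25, FDR 2.88e-08). The oxidative folding enzyme Ero1l was at 929, 2321 and 2045 CPM on day 0 and 98.8, 109.7 and 81.9 CPM on day 4 (log2 -4.09 ± 0.36, FDR 4.03e-07). The collagen cross-linking enzyme Loxl2 was at 67.6, 99.1 and 101 CPM on day 0 and 3.67, 3.13 and 3.58 CPM on day 4 (log2 -4.48 ± 0.39, FDR 3.47e-07). Among the factors themselves the values were mixed. Hif1a was at 164, 196 and 201 CPM on day 0 and 158, 166 and 154 CPM on day 4 and did not pass (log2 -0.22 ± 0.12, FDR 0.192), while Epas1, which encodes Hif2a, rose from 886, 1018 and 1208 to 2969, 3094 and 3506 CPM (log2 1.63 ± 0.17, FDR 1.79e-06). Bhlhe40 and Kdm3a, also known targets, did not pass (-0.18 ± 0.19 and -0.27 ± 0.16).

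The upstream windows of Car9, Egln3 and Hif3a are shown because they are among the hypoxia list's largest falls with a window in the table and each held the hypoxia core (in capitals, with CACGT and CACGC its reverse complements). Hif3a encodes another hypoxia-inducible factor subunit and was at 41.5, 13.5 and 8.09 CPM on day 0 and 2.88, 1.78 and 0.299 CPM on day 4 (log2 -3.23 ± 0.53, FDR 0.00023).
Car9, chr4:43506776-43507025, plus strand: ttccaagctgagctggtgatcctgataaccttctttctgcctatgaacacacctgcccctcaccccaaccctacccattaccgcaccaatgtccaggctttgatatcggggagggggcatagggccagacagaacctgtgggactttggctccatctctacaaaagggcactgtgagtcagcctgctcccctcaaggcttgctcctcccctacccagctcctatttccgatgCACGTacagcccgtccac
Egln3, chr12:54203875-54204124, minus strand: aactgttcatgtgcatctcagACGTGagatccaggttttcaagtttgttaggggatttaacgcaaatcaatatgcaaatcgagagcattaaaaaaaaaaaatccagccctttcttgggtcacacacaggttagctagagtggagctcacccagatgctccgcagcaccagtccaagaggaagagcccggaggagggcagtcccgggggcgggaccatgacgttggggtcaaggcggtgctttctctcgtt
Hif3a, chr7:17062428-17062677, minus strand: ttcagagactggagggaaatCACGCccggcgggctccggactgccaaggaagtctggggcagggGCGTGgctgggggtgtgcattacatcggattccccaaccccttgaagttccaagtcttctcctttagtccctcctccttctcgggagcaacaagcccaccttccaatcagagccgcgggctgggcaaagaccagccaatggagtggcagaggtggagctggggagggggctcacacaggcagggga
The windows are again the 250 bases upstream in RefSeq, GRCm38.p6, 5′ to 3′. The hypoxia core stood in the windows of 21 of 22 hypoxia list genes that matched (95.5%) and 16 of 18 glycolysis genes (88.9%), against 59.5% of the 10962 tested genes with a window and 41.5% of all genes with one. It also stood in those of 7 of 8 dynein assembly genes (87.5%) and 7 of 9 regulators (77.8%), groups that rose. The hypoxia core is short and frequent, and the window of Car12 did not hold it.

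Glycolysis fell as a group. Of 19 tested members 15 fell and none rose, with a median of -1.47, and summed levels were 11290, 11980 and 11610 CPM on day 0 and 4310, 4378 and 4084 CPM on day 4. The lactate exporter Slc16a3 was at 169, 131 and 85.1 CPM on day 0 and 4.58, 9.98 and 10.2 CPM on day 4 (log2 -3.90 ± 0.27, FDR 4.58e-08). The phosphofructokinase Pfkp was at 205, 274 and 254 CPM on day 0 and 67.8, 61.2 and 57.1 CPM on day 4 (log2 -1.96 ± 0.17, FDR 3.49e-07). Triosephosphate isomerase Tpi1 was at 1406, 1134 and 1107 CPM on day 0 and 314, 399 and 303 CPM on day 4 (log2 -1.84 ± 0.15, FDR 1.98e-07). Gapdh and Pgk1 fell by similar amounts (-2.03 ± 0.27 and -1.93 ± 0.20). Gapdh, Tpi1 and Pgk1 have many processed copies in the genome, so their levels here may be understated. Hk1, Pfkm and Ldhb, isoforms of steps whose other isoforms fell, did not pass (-0.26 ± 0.13, -0.17 ± 0.17 and 0.02 ± 0.28). Nuclear genes of oxidative phosphorylation were a contrast: none of 27 was called by limma or edgeR, 1 fell in DESeq2, 4 had an unadjusted p under 0.05, and the median was 0.08 (2 rose without day 0 replicate 1, and 1 without day 0 replicate 3 or day 4 replicate 1). The ATP synthase subunit Atp5a1 was at 919, 1099 and 1131 CPM on day 0 and 966, 1111 and 1116 CPM on day 4 (log2 0.02 ± 0.12, FDR 0.915).

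**Figure D4:**
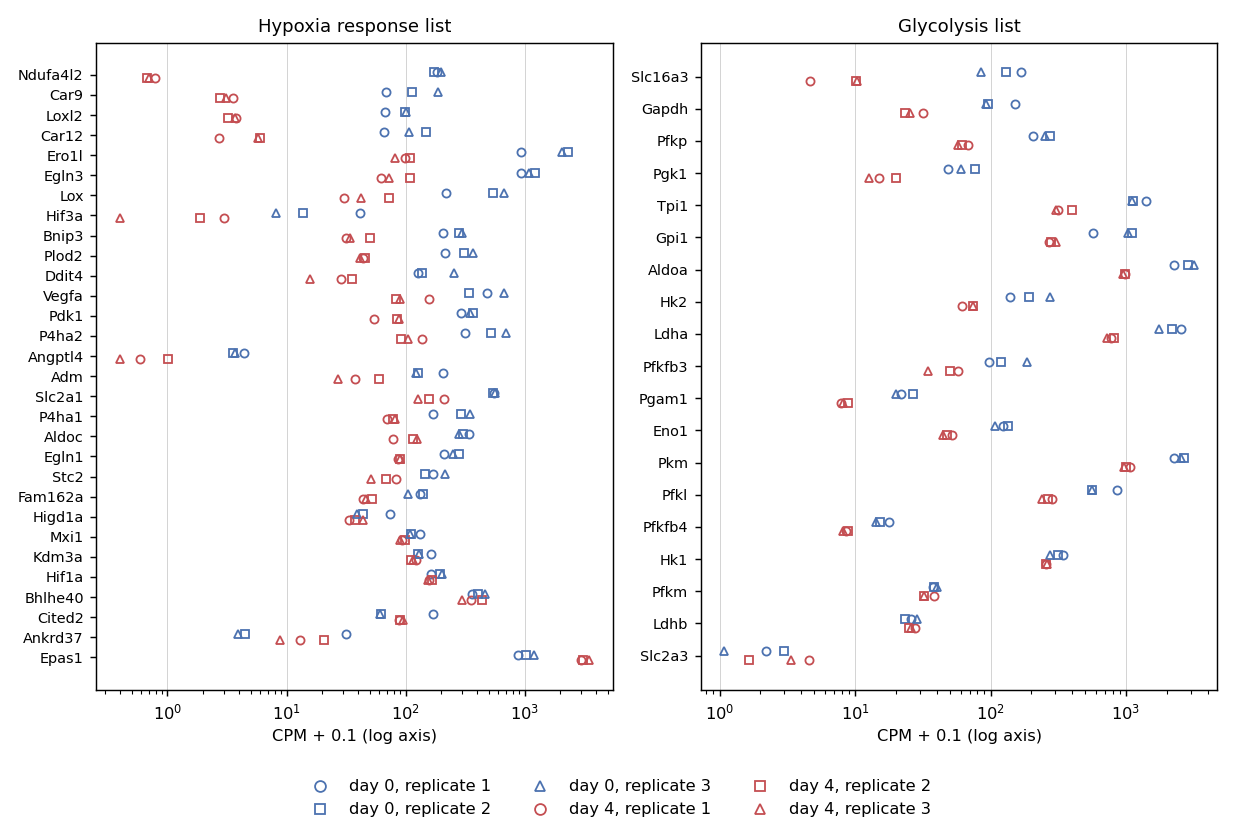
Levels of the 30 hypoxia response genes (left) and 19 glycolysis genes (right) in the 3 day 0 libraries (blue) and 3 day 4 libraries (red), as CPM + 0.1 on a log axis, ordered by difference from the largest fall at the top. Ndufa4l2 leads at -7.37, and Epas1 at the bottom left is the 1 member that rose.

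Many basal cell markers declined. Of 18 tested, 10 fell, against 13.3% of all genes called lower, and 1 rose (median -0.98). Summed levels overlapped, at 10380, 7916 and 6007 CPM on day 0 and 5811, 6698 and 5925 CPM on day 4. The basal keratin Krt5 was at 2327, 1421 and 806 CPM on day 0 and 489, 664 and 483 CPM on day 4 (log2 -1.36 ± 0.28, FDR 0.00175). The basal transcription factor Snai2 was at 23, 34.5 and 35.4 CPM on day 0 and 8.02, 10.2 and 6.28 CPM on day 4 (log2 -1.86 ± 0.21, FDR 4.64e-06). The receptor Ngfr was at 161, 164 and 105 CPM on day 0 and 60, 44.7 and 35.3 CPM on day 4 (log2 -1.61 ± 0.31, FDR 0.00102). Integrin Itga6 and the hemidesmosome collagen Col17a1, which anchor basal cells to the matrix, differed by -1.60 ± 0.20 and -1.65 ± 0.27. Krt14 was at 482, 255 and 122 CPM on day 0 and 97.6, 154 and 55.9 CPM on day 4 (log2 -1.38 ± 0.43, FDR 0.0253), and was not called without day 0 replicate 1 (FDR 0.118), without day 0 replicate 2 (FDR 0.0671), without day 4 replicate 1 (FDR 0.0512) and without day 4 replicate 3 (FDR 0.143). Krt15 was the member that rose, at 2836, 1485 and 875 CPM on day 0 and 2236, 3481 and 3307 CPM on day 4 (log2 0.93 ± 0.34, FDR 0.0484), with day 0 replicate 1 inside the day 4 range. Krt15 was not called without day 0 replicate 2 (FDR 0.13), without day 0 replicate 3 (FDR 0.222), without day 4 replicate 2 (FDR 0.141) and without day 4 replicate 3 (FDR 0.145). The water channel Aqp3 and the adhesion molecule Bcam did not pass (-0.12 ± 0.32 and -0.50 ± 0.26). Squamous and cornified markers fell in 7 of 21 cases and rose in none (median -1.15; 4 fell without day 0 replicate 2 and 4 without day 4 replicate 3). Scel was at 279, 300.0 and 372 CPM on day 0 and 85.2, 97.5 and 67.2 CPM on day 4 (log2 -1.93 ± 0.16, FDR 2.79e-07). The cornified envelope precursor Sprr1a was at 66.7, 134 and 61.8 CPM on day 0 and 19.1, 22.3 and 9.26 CPM on day 4 (log2 -2.34 ± 0.47, FDR 0.00135). Krt16, a keratin of stressed squamous cells, was at 1.68, 3.57 and 3.08 CPM on day 0 and 0.0328, 0.482 and 0 CPM on day 4 (log2 -2.31 ± 0.51, FDR 0.00302).

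Of 24 basement membrane and matrix genes 19 fell and none rose (median -1.30), where 13.3% of all tested genes were called lower. Nidogen Nid1 was at 34.9, 34.8 and 26.2 CPM on day 0 and 2.49, 1.54 and 1.49 CPM on day 4 (log2 -3.81 ± 0.35, FDR 5.85e-07). Fibronectin Fn1 was at 2176, 2888 and 3826 CPM on day 0 and 312, 330.3 and 206 CPM on day 4 (log2 -3.38 ± 0.37, FDR 3.7e-06). The laminin chain Lamb1, perlecan Hspg2 and collagen Col18a1 differed by -2.83 ± 0.32, -2.91 ± 0.35 and -2.78 ± 0.24, whereas Lamb2 did not pass (0.11 ± 0.26). Targets of TGF-beta, YAP and BMP signalling fell in 10 of 21 cases (median -0.87). Tgfbi, a secreted matrix protein, was at 65.4, 49.4 and 18.4 CPM on day 0 and 1.11, 4.39 and 0.299 CPM on day 4 (log2 -4.42 ± 0.70, FDR 0.00016). The YAP target Cyr61 was at 147, 189 and 345 CPM on day 0 and 61, 48.4 and 67.2 CPM on day 4 (log2 -1.86 ± 0.26, FDR 6.1e-05). Tight junction and desmosome genes fell in 12 of 26 cases and rose in 1 (median -0.45; 3 rose without day 0 replicate 1 and none without day 0 replicate 2, day 4 replicate 2 or day 4 replicate 3). The desmosomal cadherins Dsc2 and Dsg3 differed by -1.93 ± 0.23 and -1.59 ± 0.27 and the plakophilin Pkp1 by -1.50 ± 0.23, while the scaffold Tjp1 did not pass (-0.03 ± 0.19). In the Wnt list 10 of 24 fell and 1 rose (median -0.42; 6 fell without day 0 replicate 3 and 6 without day 4 replicate 3), among them the receptors Fzd1 (166 ± 20.7 to 44.6 ± 8.34 CPM, -1.89 ± 0.21) and Lrp5 (377 ± 8.85 to 157 ± 18 CPM, -1.26 ± 0.19). Wnt5b was the ligand that rose (log2 1.08 ± 0.22, FDR 0.00177).

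Of 22 secretory markers tested 9 fell, against 13.3% of all genes called lower, and 3 rose, a share near the 13.7% of all genes called higher (median -0.15). The falls numbered 6 without day 4 replicate 1 or day 4 replicate 3. The summed level of the list rose, from 55420, 50230 and 56580 CPM on day 0 to 71550, 82140 and 91520 CPM on day 4. Cyp2f2, a club cell cytochrome, went from 4842, 2791 and 3387 to 26790, 21630 and 29870 CPM (log2 2.85 ± 0.21, FDR 7.14e-08). Haptoglobin Hp was at 147, 123 and 114 CPM on day 0 and 754, 470.3 and 604 CPM on day 4 (log2 2.23 ± 0.28, FDR 1.85e-05). The secretoglobin Scgb3a2 was at 461, 244 and 403 CPM on day 0 and 733, 1256 and 754 CPM on day 4 (log2 1.31 ± 0.28, FDR 0.00231). The simple keratins Krt8 and Krt18 fell by 1.51 ± 0.16 and 1.55 ± 0.22, and the membrane mucins Muc4 and Muc20 by 1.65 ± 0.26 and 2.39 ± 0.20. The antimicrobial genes Reg3g and Ltf, both abundant on each day, did not pass (0.49 ± 0.51 and -0.34 ± 0.24). Scgb1a1, the club cell secretoglobin, was at 72.9, 40.2 and 47.7 CPM on day 0 and 264, 77.6 and 107 CPM on day 4 (log2 1.31 ± 0.65, FDR 0.15). Goblet markers fell in 3 of 13 cases and rose in none, though 1 rose in edgeR and in DESeq2. Of the 13, 5 had a positive difference, up to 1.54. Summed levels were 1009, 798 and 1014 CPM on day 0 and 762, 1616 and 2032 CPM on day 4. Dmbt1 was called higher without day 0 replicate 3 (FDR 0.0423) and without day 4 replicate 1 (FDR 0.0202). The gel-forming mucin Muc5ac was at 25.6, 27.1 and 36.5 CPM on day 0 and 13.3, 14.1 and 14.9 CPM on day 4 (log2 -1.04 ± 0.24, FDR 0.00346). Fcgbp was at 237, 267 and 323 CPM on day 0 and 53.9, 73.7 and 91.1 CPM on day 4 (log2 -1.93 ± 0.38, FDR 0.00114).

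Enzymes of xenobiotic metabolism and antioxidant defence were the largest group to rise outside the cilium. Of 29 tested 16 rose and none fell (median 0.99), and their summed level went from 6951, 8789 and 10090 to 16910, 20630 and 21490 CPM. Cyp2a5 was at 19.8, 55.5 and 42.6 CPM on day 0 and 2110, 2255 and 2195 CPM on day 4 (log2 5.90 ± 0.45, FDR 9.41e-08), although it shares most of its sequence with Cyp2a4. Cyp4b1 was at 13.2, 9.76 and 13.8 CPM on day 0 and 627, 456 and 799 CPM on day 4 (log2 5.60 ± 0.24, FDR 3.95e-10). Cyp2b10 was at 9.62, 19.2 and 12.7 CPM on day 0 and 72.4, 114 and 68.1 CPM on day 4 (log2 2.59 ± 0.25, FDR 1.17e-06). Day 4 replicate 1 was the lowest day 4 library for 19 of the 29 members and for 12 of the 16 that rose. Cyp1b1 did not pass (0.71 ± 0.44). In the retinoic acid list 2 of 16 rose and 3 fell, against 13.7% and 13.3% of all tested genes. Aldh1a1, which makes retinoic acid, was at 642, 389 and 416 CPM on day 0 and 3029, 4877 and 5009 CPM on day 4 (log2 3.16 ± 0.28, FDR 4.74e-07), and Cyp26b1, which degrades it, fell from 441, 310.0 and 340.0 to 26.3, 38.9 and 29 CPM (log2 -3.52 ± 0.29, FDR 2.25e-07). Among 19 ion and water transport genes 1 rose and 5 fell: the sodium channel subunit Scnn1a rose (log2 0.90 ± 0.23, FDR 0.00811), the anion transporter Slc26a9 fell from 101, 55 and 82.7 to 6.88, 6.07 and 6.28 CPM (log2 -3.49 ± 0.30, FDR 3.3e-07), and the count of falls was 3 without day 0 replicate 2 or day 0 replicate 3 and 1 without day 4 replicate 3.

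Markers of rare airway cells were low throughout. Foxi1, the ionocyte transcription factor, was at 0, 0.0687 and 0.0822 CPM on day 0 and 1.05, 2.6 and 1.79 CPM on day 4 (log2 2.02 ± 0.33, FDR 0.000235). Cftr, the chloride channel enriched in ionocytes, was at 8.09, 6.87 and 7.02 CPM on day 0 and 3.67, 8.24 and 6.57 CPM on day 4 (log2 -0.30 ± 0.43, FDR 0.661). In all, 3 of 9 ionocyte markers rose and 1 fell, against 13.7% and 13.3% of all tested genes. Among 9 tuft cell markers 2 rose, 1 of them Gnat3 (log2 2.01 ± 0.49, FDR 0.0057), a G protein of taste transduction, and Alox5ap fell (log2 -2.16 ± 0.36, FDR 0.000251). Only 1 rose without any 1 of day 0 replicates 2 and 3 and day 4 replicates 2 and 3. The defining factor Pou2f3 did not pass (log2 -0.98 ± 0.44, FDR 0.112) but was called without day 0 replicate 1 (FDR 0.0254) and without day 4 replicate 2 (FDR 0.0476). None of 10 neuroendocrine markers was called by limma, edgeR or DESeq2, and 0 had an unadjusted p under 0.05.

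Cell-cycle genes fell in part. For the counts that follow, the share of all tested genes called lower was 13.3%. In the mitosis list 12 of 24 fell and none rose (median -1.31), but the count was 7 without day 0 replicate 1, without day 0 replicate 2 or without day 4 replicate 1. The count was 4 with limma voom on whole reads and 14 without day 0 replicate 3. Mki67 was at 55, 59.1 and 18 CPM on day 0 and 4.13, 7.47 and 3.58 CPM on day 4 (log2 -2.89 ± 0.54, FDR 0.000767). The cyclin Ccna2 was at 25, 22.7 and 7.43 CPM on day 0 and 1.21, 4.34 and 2.69 CPM on day 4 (log2 -2.49 ± 0.60, FDR 0.00504). Not every mitotic gene followed: the mitotic kinase Cdk1 was at 43.1, 28.2 and 13.3 CPM on day 0 and 19.4, 46.8 and 48.7 CPM on day 4 (log2 0.47 ± 0.43, FDR 0.454). The topoisomerase Top2a was at 76.5, 62.5 and 25.8 CPM on day 0 and 23.5, 49.8 and 60.4 CPM on day 4 (log2 -0.27 ± 0.51, FDR 0.745), each with overlapping libraries. DNA replication genes fell in 5 of 24 cases (median -0.53), and day 0 replicate 1 held the highest day 0 level of all 24, with a sum of 960 CPM against 517 and 408. Without that library 2 fell, without day 4 replicate 1 the count was 3, and without day 0 replicate 3 it was 9. Mcm4, a helicase subunit, was at 88, 46.4 and 38.4 CPM on day 0 and 22.7, 28.8 and 24.2 CPM on day 4 (log2 -1.09 ± 0.27, FDR 0.00671). Among p53 targets 5 of 24 fell (9 without day 0 replicate 1, and 3 without day 0 replicate 3 or day 4 replicate 3), including Pmaip1 (189 ± 73.7 to 54.2 ± 8.81 CPM, -1.73 ± 0.33), while the best known target, the cell-cycle inhibitor Cdkn1a, did not pass, at 304, 253 and 302 CPM on day 0 and 229.9, 300.3 and 333 CPM on day 4 (log2 -0.01 ± 0.18, FDR 0.983).

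Many stress and inflammatory genes fell. The counts below stand beside 13.3% of all tested genes called lower and 13.7% called higher. Immediate early genes, which respond within minutes to signals and to handling, fell in 11 of 17 cases (median -1.43; 7 without day 0 replicate 3 and 6 without day 4 replicate 3). Atf3 was at 385, 195 and 350.4 CPM on day 0 and 4.98, 8.39 and 4.48 CPM on day 4 (log2 -5.58 ± 0.45, FDR 1.79e-07). Jun was at 111, 148 and 201 CPM on day 0 and 18, 21.8 and 14.6 CPM on day 4 (log2 -3.02 ± 0.28, FDR 6.69e-07). Fosb was at 139, 38 and 24.3 CPM on day 0 and 0.983, 1.45 and 1.2 CPM on day 4 (log2 -4.91 ± 0.51, FDR 2.48e-06). For Nr4a1, at 325, 36.4 and 49.6 CPM on day 0 and 2.88, 2.65 and 1.2 CPM on day 4 (log2 -5.01 ± 0.63, FDR 1.57e-05), day 0 replicate 1 stood far above the other 2. Genes of epithelial inflammation fell in 10 of 21 cases (median -1.26). The alarmin Il33 was at 58, 35.8 and 26.1 CPM on day 0 and 1.51, 7.52 and 1.79 CPM on day 4 (log2 -3.53 ± 0.59, FDR 0.000257). The prostaglandin synthase Ptgs2 was at 397, 327 and 256 CPM on day 0 and 59.5, 66.6 and 56.5 CPM on day 4 (log2 -2.40 ± 0.43, FDR 0.000542). Cxcl5, at 1136, 89.9 and 58.2 CPM on day 0 and 46.1, 74.1 and 40.3 CPM on day 4, did not pass (log2 -1.80 ± 0.87, FDR 0.138), with most of its reads in 1 day 0 library, and was called without day 0 replicate 3 (FDR 0.0474). Interferon response and antigen processing genes fell in 7 of 29 cases (median -0.39), such as Ifitm3 (405 ± 121 to 176 ± 26.4 CPM, -1.17 ± 0.20) and B2m (278 ± 64.5 to 144 ± 31.8 CPM, -0.94 ± 0.20). Heat shock genes rose in 4 of 12 cases and fell in none: Hsp90aa1 was at 77.7, 90.3 and 88.1 CPM on day 0 and 176, 281 and 305 CPM on day 4 (log2 1.53 ± 0.18, FDR 9.39e-06), while its constitutive counterpart Hsp90ab1 did not pass (-0.02 ± 0.10). Of 20 endoplasmic reticulum chaperone genes 1 fell and none rose (3 rose without day 0 replicate 1).

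Cholesterol synthesis and uptake genes fell in 14 of 24 cases and rose in 1 (median -0.82). Here and for the next lists, 13.3% of all tested genes were called lower and 13.7% higher. Hsd17b7, a sterol reductase, was at 77.8, 93.8 and 97.9 CPM on day 0 and 13.9, 21.8 and 16.1 CPM on day 4 (log2 -2.36 ± 0.20, FDR 2.61e-07). The sterol demethylase Cyp51 was at 164, 168 and 98.1 CPM on day 0 and 40.4, 65.3 and 43 CPM on day 4 (log2 -1.52 ± 0.29, FDR 0.000894), while Hmgcs1 and Sqle did not pass (-0.67 ± 0.33 and -0.33 ± 0.28). Of 17 fatty acid synthesis genes 6 fell (3 without day 0 replicate 2, day 4 replicate 1 or day 4 replicate 2), led by the elongase Elovl6 (log2 -1.25 ± 0.28, FDR 0.00356), and Fasn did not pass (-0.05 ± 0.24). Targets of Atf4, the amino acid stress factor, fell in 6 of 17 cases (median -0.87; 10 without day 0 replicate 1). The amino acid transporter Slc7a5 was at 261, 549.5 and 578 CPM on day 0 and 29.3, 61.1 and 33.5 CPM on day 4 (log2 -3.46 ± 0.51, FDR 8.16e-05). In the metal handling list 1 of 12 rose and 3 fell (1 fell without day 4 replicate 1): the metallothionein Mt1 fell by 1.41 ± 0.30, and the transferrin receptor Tfrc rose by 1.18 ± 0.25.

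In the Notch list, whose signal steers cells to the secretory fate, 4 of 23 members fell and 1 rose (median -0.19). Of all tested genes, 13.3% were called lower and 13.7% higher, so the falls were near that share and the rises below it. The target gene Nrarp fell by 1.62 ± 0.35. The receptor Notch3 was at 89.6, 84.8 and 81.3 CPM on day 0 and 51.4, 42.6 and 35 CPM on day 4 (log2 -0.996 ± 0.25, FDR 0.00738). Hes6 rose (log2 0.58 ± 0.15, FDR 0.00826). The count of falls was 2 without day 0 replicate 2, without day 0 replicate 3 or without day 4 replicate 3. Of 20 airway transcription factors 2 rose, against 13.7% of all tested genes: Sox2 (log2 0.67 ± 0.14, FDR 0.00175) and Foxa2 (log2 1.09 ± 0.25, FDR 0.00317). Of the same list 2 fell (4 without day 0 replicate 1), against 13.3% of all tested genes. Klf4, a factor of squamous differentiation, was at 134, 96 and 124 CPM on day 0 and 22.3, 23.8 and 14.6 CPM on day 4 (log2 -2.53 ± 0.21, FDR 2.58e-07), and the other was Grhl3 (log2 -1.75 ± 0.35, FDR 0.00122). Among 15 clock genes 1 rose and 1 fell, shares below those of all tested genes. Day 0 libraries differed by several fold for clock outputs, with Per2 at 28.6, 166 and 200.3 CPM on day 0 and 52.3, 75.7 and 92.6 CPM on day 4 (log2 -0.46 ± 0.64, FDR 0.646).

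**Figure D5:**
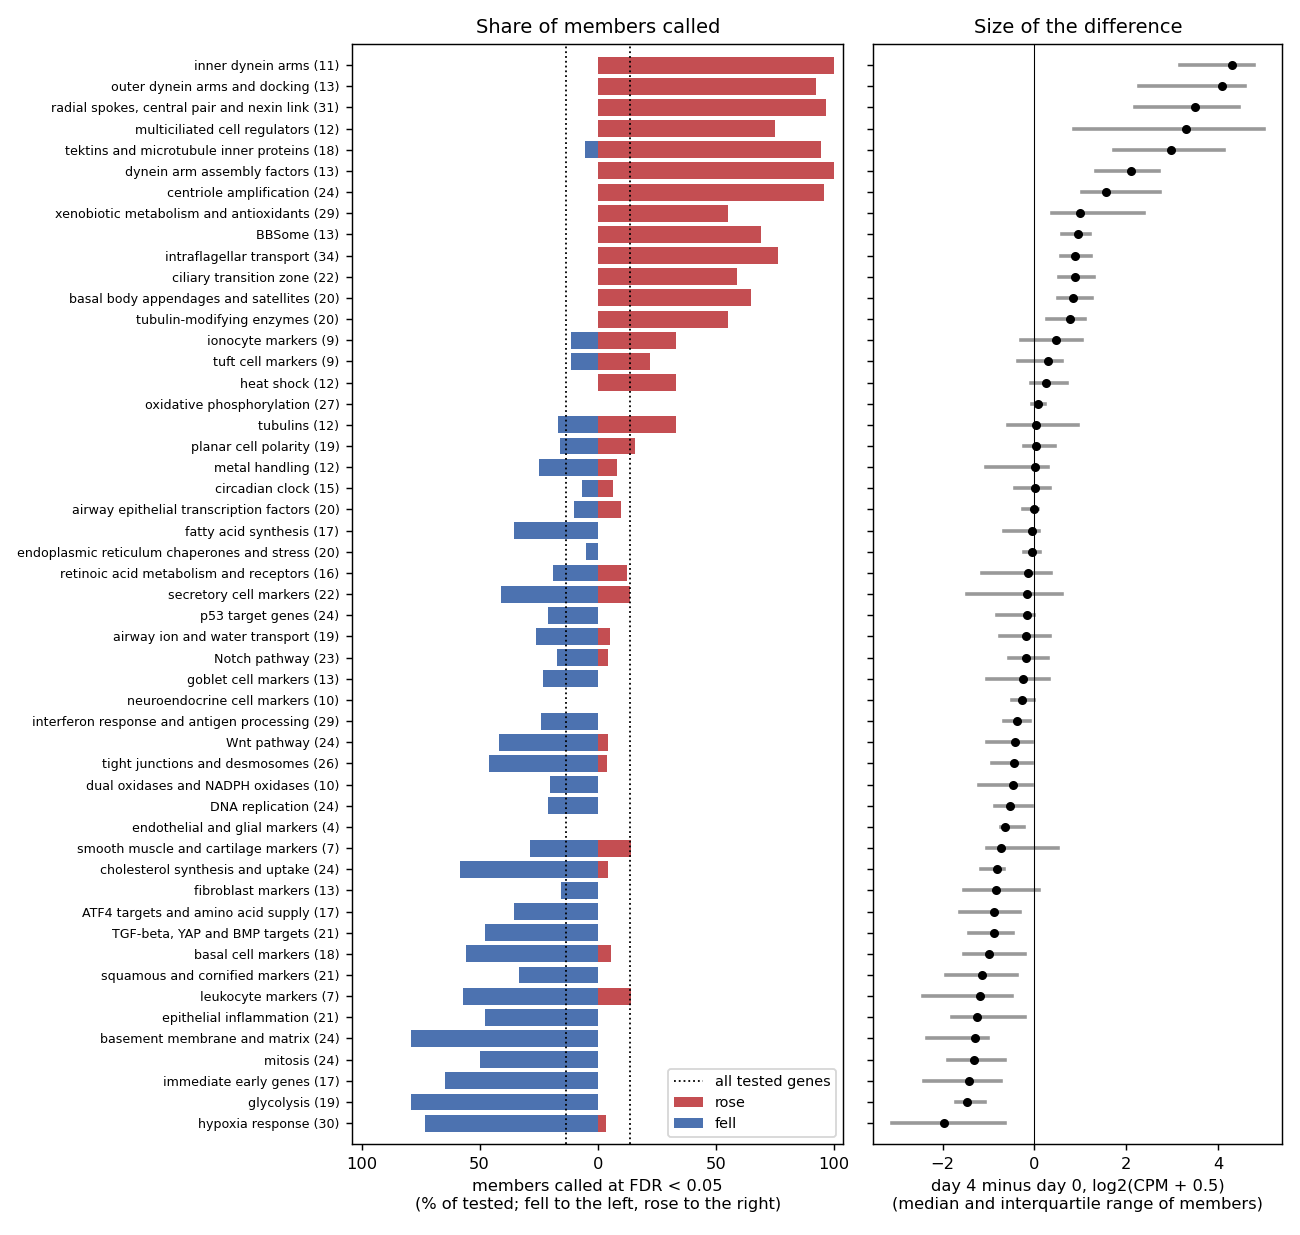
All 51 gene lists, ordered by median difference, with the number of tested members in brackets. Left: percent of tested members called lower (blue, to the left) or higher (red, to the right) on day 4, with dotted lines at the 13.3% and 13.7% of all tested genes. Right: the median (dot) and interquartile range (bar) of the members' differences in log2(CPM + 0.5); dynein arms lie at one end at 4.29 and the hypoxia response at the other at -1.97.

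Markers of cells other than tracheal epithelium were checked beside these results. The leukocyte markers Cd3e, Cd79a, Ptprc, Cd52, Emr1, Fcer1g and Tyrobp were below the low-value filter, as were the endothelial markers Pecam1, Cdh5 and Kdr and the glial factor Sox10. Of the 7 leukocyte markers tested 4 fell and Lyz2, a lysozyme that airway epithelium also makes, rose from 17.9, 35.7 and 54.9 to 642, 1158 and 938 CPM (log2 4.74 ± 0.75, FDR 0.000179). Cd74, at 27.1, 36.5 and 56 CPM on day 0 and 1.21, 3.08 and 3.29 CPM on day 4, fell (log2 -3.76 ± 0.50, FDR 2.89e-05). Summed fibroblast markers were at 50.6 to 96.1 CPM on day 0 and 31.7 to 52.5 CPM on day 4. Of the 13 tested 2 fell, a share near the 13.3% of all tested genes (1 fell without day 0 replicate 2, day 0 replicate 3 or day 4 replicate 3). Pdgfra was among the 2 (-1.80 ± 0.37). Smooth muscle and cartilage markers summed to 50.6 to 135 CPM and 66.0 to 86.5 CPM, and of 7 tested 2 fell, Sox9 and Col2a1 (-1.21 ± 0.26 and -1.66 ± 0.26). Myh11, a smooth muscle myosin, was the 1 that rose (log2 1.01 ± 0.31, FDR 0.0243), and was not called without day 0 replicate 1 (FDR 0.104), without day 4 replicate 1 (FDR 0.105) and without day 4 replicate 3 (FDR 0.0588). Day 0 replicate 2 held the highest day 0 level of all 10 neuroendocrine markers and of 10 of 13 fibroblast markers. Its Snap25 level was 24 CPM, where the other day 0 libraries had at most 0.219 CPM. The part of such cells in the changes of matrix and inflammatory genes was not tested.

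Several of the largest changes were of genes on none of the lists above, though some, such as the radial spoke component Lrrc23, also belong to the cilium. Sec14l3, a lipid-binding protein, was at 5.1, 4.46 and 2.01 CPM on day 0 and 148, 481 and 636 CPM on day 4 (log2 6.44 ± 0.42, FDR 1.97e-08). Lrrc23, a radial spoke component, was at 0.656, 1.37 and 1.11 CPM on day 0 and 60.9, 191 and 183 CPM on day 4 (log2 6.41 ± 0.40, FDR 1.4e-08). The dynein light chain Dynlrb2 was at 0.51, 0.412 and 0.534 CPM on day 0 and 29.9, 106 and 114 CPM on day 4 (log2 6.19 ± 0.38, FDR 1.4e-08). Fam183b, the adenylate kinase Ak7 and Spata18 went from under 1 CPM in every day 0 library to means of 47.2 ± 27.8, 50.8 ± 30.2 and 42.3 ± 26.6 CPM. On the other side, the proton channel Otop1 fell from 21.1, 36.1 and 33.5 to 0.262, 0.916 and 0.299 CPM (log2 -4.98 ± 0.38, FDR 1.06e-07), and the ectoenzyme Bst1 from 59.8, 69 and 111 to 3.67, 2.99 and 2.99 CPM (log2 -4.39 ± 0.26, FDR 1.29e-08). The chemokine Ppbp was at 37, 192 and 48.1 CPM on day 0 and 1.34, 10.3 and 0.299 CPM on day 4 (log2 -4.81 ± 0.83, FDR 0.000347), with one high library on each day. The kinase anchor Akap12 was at 89.6, 128 and 160.1 CPM on day 0 and 6.35, 7.52 and 3.29 CPM on day 4 (log2 -4.38 ± 0.35, FDR 1.46e-07).

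Whether the wild-type change differed from that in the cultures labelled p73 knockout was tested as an interaction over both genotypes at days 0 and 4. It was called for 3 genes, 0.0191% of those tested, in limma, with 458 genes at an unadjusted p under 0.05, 1 gene called by edgeR and 18 by DESeq2. Trp73 itself was one: it was at 49.2 and 48.7 CPM in the labelled-knockout libraries of day 0 and 35.1 and 27.5 CPM on day 4, so the wild-type change exceeded the labelled-knockout change by 3.54 ± 0.51 (FDR 0.021). The deposited value covers the gene as a whole and the deleted exons are not given in the labels, so it does not check the genotype. Prss12, a secreted protease, was at 2.33, 2.13 and 2.18 then 3.08, 5.93 and 5.38 CPM in wild type and at 24.4 and 18.1 then 6.66 and 4.63 CPM in labelled knockout, a difference of 2.75 ± 0.44 (FDR 0.0471). Grik3, a glutamate receptor subunit, was at 0.0729, 0.893 and 0.0822 then 0.819, 0.53 and 0.299 CPM in wild type and at 5.97 and 10.5 then 0.473 and 0.0778 CPM in labelled knockout, a difference of 3.90 ± 0.52 (FDR 0.0176). In all 3 the genotypes differed most on day 0. The other regulators of multiciliated cells were not called in this test: for Foxj1, for example, the wild-type change exceeded the other by 0.27 ± 0.44 (FDR 1). With 2 labelled-knockout libraries a day, a p that misses the threshold does not show that the changes were alike.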

How the data were processed

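Polyadenylated RNA was sequenced from 20 cultures. The deposited signal values are scaled reads per gene: the steps between values show that the authors used 1 divisor per library, chosen within each day. The submitters' processing notes name STAR 2.3.0e, DESeq2 1.4.5 and the mm10 build, and the counting tool, annotation and use of strand are not stated there or in the labels. Multiplying back gave whole reads for 100.0% of nonzero values within 0.1 reads, and these were rescaled across days with TMM factors (edgeR 4.0.16) to CPM.

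Genes at 0.5 CPM or more in at least 2 libraries were tested as log2(CPM + 0.5) with limma 3.58.1 in R 4.3.3, using trend and robust variance, 8 group means over 20 libraries and 12 residual degrees of freedom. Calls were made at a Benjamini-Hochberg adjusted p under 0.05 over all tested genes. An error after a log2 difference is limma's moderated SE. A count test was planned as the main test only if raw counts were deposited. As they were not, limma on the TMM-scaled CPM of the recovered reads was the main test. On the same recovered reads edgeR called 4079 genes where limma called 4244. The code was run on simulated counts with the same dispersion (spread setting) for every gene and few changed genes. These data differ from that setting, so the run checks the code and does not measure error rates here. P-values measure only the spread between these libraries.

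The members and the 51 gene lists (938 distinct tested genes, 42 more under the filter on low values and 13 not matched) were chosen with earlier results of these data known. Genes were named from the 12 largest called rises and 12 largest called falls with non-overlapping libraries and at least 2 CPM in the higher group, leaving aside sex-linked genes and those with predicted or clone names, the regulators, and in each list up to 6 called members by size in each direction and the 3 most abundant that did not pass. Krt5, Cdh1, Scgb1a1, Dhx29, Gpx8 and Hif3a were named after their values were seen. A few genes that this rule takes are not reported here. Symbols are as deposited (Dnahc stands for Dnah). Coordinates are from GENCODE vM21 (GRCm38), where 36602 of 38355 gene IDs matched, and upstream windows from RefSeq. Alternatives were other scalings, pseudocounts, filters and sample sets, a replicate block, edgeR, DESeq2 1.42.0 and voom on recovered reads, and leaving out each library. The authors' own deposited comparisons were not used.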

Additional observations from a re-analysis of the deposited data

Results flagged for a closer look

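For 3 genes the change from day 0 to day 4 in wild type differed from that in the cultures labelled p73 knockout by the interaction test in limma. The wild-type change minus the labelled-knockout change was 3.90 on the log2 scale for Grik3, 2.75 for Prss12 and 3.54 for Trp73, and each gene was higher in both labelled-knockout libraries than in every wild-type library on day 0.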

How the results depend on the processing

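Across the alternatives the comparison of days gave between 2929 and 5556 called genes where the reported fit gave 4244. The 6 wild-type libraries alone gave 2943, the 12 wild-type libraries 4794, edgeR 4079, DESeq2 4594 and voom 3442, and leaving out 1 library gave 2929 (without day 4 replicate 3) to 4815 (without day 0 replicate 1). The values as deposited gave 1367 higher and 3773 lower genes, since each day was scaled on its own, and moved the median of all genes to -0.2117. Library totals moved it to 0.0926. Same-numbered samples of the 2 days had deviations correlated at 0.023, 0.143 and 0.136, so the numbers were not taken to pair them, although each day 0 sample correlated best with its own number, a hint from the data and not the design. With the replicate as a block the count was 5556. Of 416 named genes 275 were called, 224 of these kept the call in all 6 leave-outs, 217 did so under every setting run, 58 lost it under at least 1 setting and 0 reversed. The 3 genes of the test between genotypes became 1 with a pseudocount of 0.1, 17 with 2, 14 with no filter, 1 with at least 2 CPM in 3 libraries, 0 with only days 0 and 4, 9 with the replicate block, 1 in edgeR, 18 in DESeq2, 0 in voom, 10 without both day 4 libraries titled day 3, and 0 (without day 0 replicate 3) to 21 (without day 4 replicate 1) in leave-outs. Medians of 4 weakly changed lists turned sign. The tuft cell median was -0.2481 with at least 2 CPM in 3 libraries and -0.1416 to 0.5069 in leave-outs. The endothelial and glial median was 0.1013 with that filter and -0.9883 to 0.0455 in leave-outs. The neuroendocrine median was 0.1361 in voom and -0.8138 to 0.2946 in leave-outs, and the Notch median was 0.0099 with the 12 wild-type libraries. The cause was not tested. Depth limits low genes most in day 4 replicate 3, the shallowest library.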
